A study of Saccharomyces cerevisiae with 38 samples.

Results

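The genes described here are 36 yeast genes of cell wall structure and integrity, listed by symbol. They are mannoproteins of the wall, enzymes that make or remodel glucan and chitin, wall proteases, and genes of the Slt2 signalling pathway. Of the 36, 35 had a named spot on the arrays, among 5548 genes in all, and 33 had a value on all 38 arrays. The exception was GAS1, a glucan-elongating enzyme, which had no named spot and was not analysed here. CHS3 lacked a value on WT array A and GSC2 lacked one on ts2 array F.

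The study asked how TAF1, which belongs to the promoter-binding complex TFIID, relates to histone acetyltransferases (HATs) in Saccharomyces cerevisiae. Each array set polyA RNA of a test strain against RNA of a wild-type (WT) strain in the other dye. The test strains were 6 double mutants (esa1 ts2, gcn5 ts2, elp3 ts2, hat1 ts2, hpa2 ts2 and sas3 ts2), the single mutant ts2, the 6 single HAT mutants (esa1, gcn5, elp3, hat1, hpa2 and sas3) and WT itself. There were 2 arrays of each double mutant and each HAT mutant, 6 of ts2, and 8 of WT against WT. Every strain, WT included, was grown in synthetic medium without histidine to an optical density of about 0.8 and held at 37 °C for 45 minutes before harvest. Here ts2 denotes a temperature-sensitive TAF1 allele. The labels name each strain by a number and do not say whether a HAT mutation is a deletion or a point mutation, nor whether both arrays of a strain had cultures of their own. P-values therefore measure the spread between arrays, which may be partly technical.

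The yeast wall is a layer of glucan with some chitin, covered by mannoproteins that are attached through a lipid-derived anchor or, for the Pir proteins, directly to glucan. Wall damage and heat are known to activate the protein kinase Slt2 through membrane sensors and a cascade of kinases. Slt2 then acts through the transcription factor Rlm1, which is known to raise many wall genes. The WT reference had the same heat treatment, so a change below is a difference between a strain and WT after heat. Every array used heat-treated cells, so whether a difference was already present before the heat was not tested.

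Values are log2 ratios to the WT reference after the median gene of each array was set to 0. Before that step the median ratio of an array ran from 0.313 to 2.5, so a change is always relative to the median gene, and it gives no level that could be compared between genes. A gene is called changed where limma's moderated test across all genes gave a Benjamini-Hochberg adjusted p under 0.05. Errors after ± are standard errors of the fit, and n is the number of arrays. WT arrays centred near but not at 0, and for the Tip1/Tir/Dan family their medians lay at -0.12 for TIP1, -0.25 for TIR1, -0.35 for TIR2, -0.21 for TIR3 and -0.22 for DAN1.

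In ts2, 22 of 35 wall genes rose and 7 fell, with a median change of 0.65. Over all 5546 genes tested, 32 percent rose and 33.2 percent fell (65.2 percent in all), with a median of 0.01. All 11 structural mannoproteins, both yapsins and all 4 signalling genes rose. Of the Tip1/Tir/Dan family, 4 of 5 fell and none rose. The enzymes divided: GSC2 alone rose among 4 synthesis genes, and 4 of 9 remodelling genes rose while 3 fell.

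**Figure D1:**
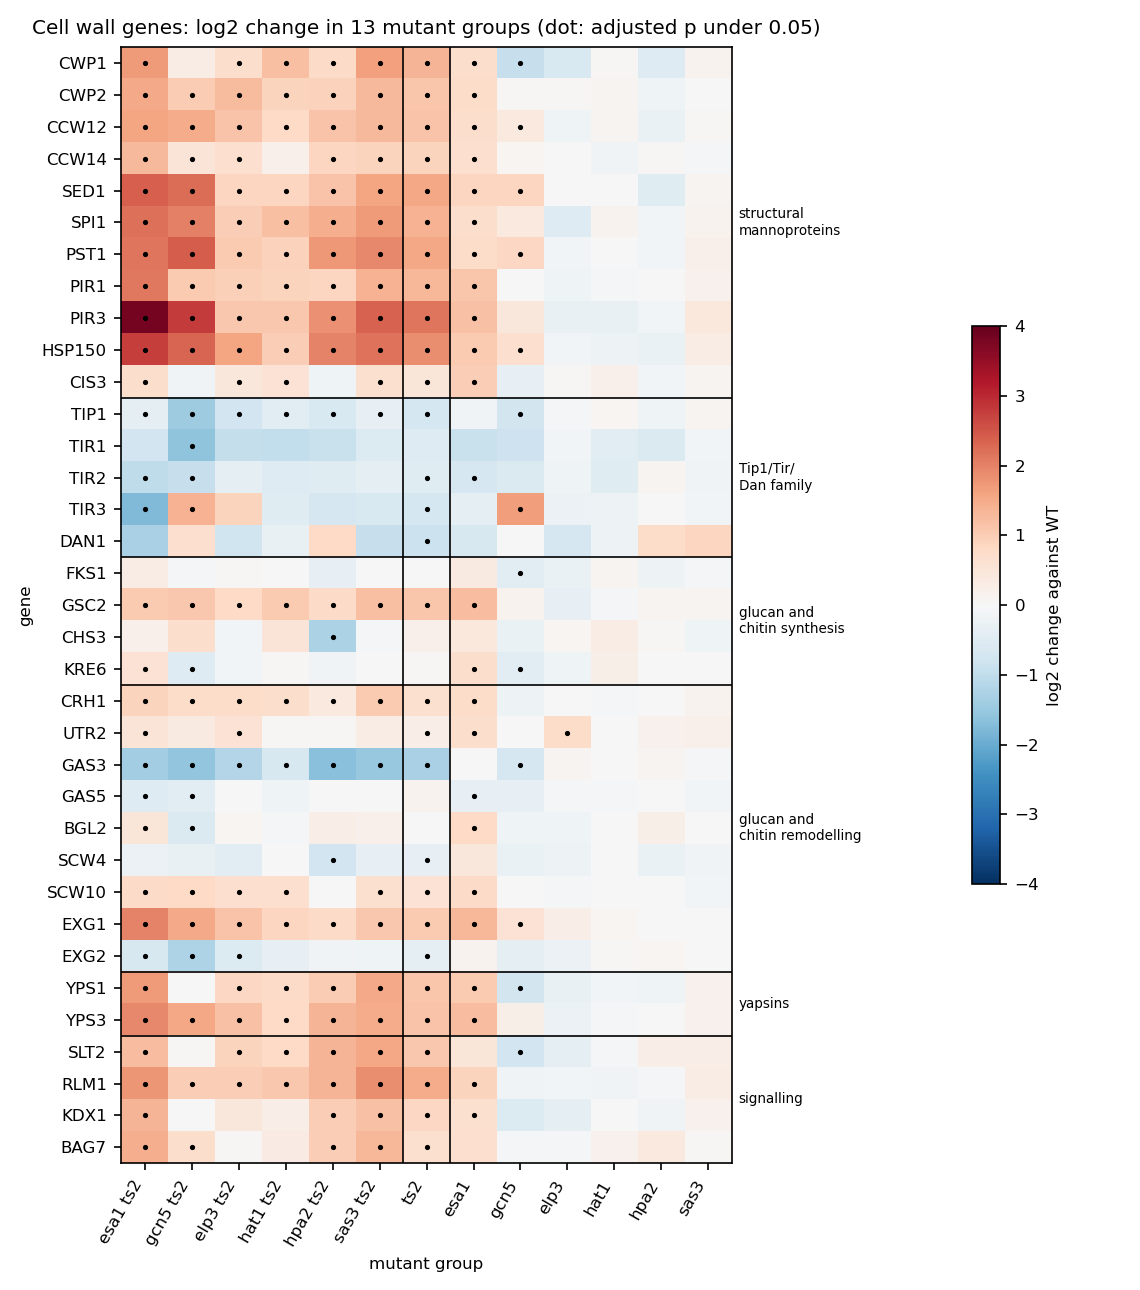
Log2 change against WT of 35 wall genes (rows, by role) in the 6 double mutants, ts2 and the 6 HAT mutants (columns), with colour from -4 to 4 and a dot where the adjusted p was under 0.05. In ts2, 22 genes are dotted as higher and 7 as lower, against 22 and 2 in esa1, 6 and 7 in gcn5, and 1 dot in all of elp3, hat1, hpa2 and sas3.

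Among mannoproteins, PIR3, a glucan-bound Pir protein, gave the largest change. Its log2 ratio ran from 1.67 to 2.68 on the 6 ts2 arrays with a median of 2.14, against -0.75 to -0.07 with a median of -0.27 on the 8 WT arrays. No ts2 array overlapped a WT array, and the fitted change was 2.13 ± 0.16 (a 4.36-fold ratio, adjusted p = 3.11e-12). Such separation was common: 14.3 percent of all genes lay wholly above the WT arrays in ts2 and 15.1 percent wholly below. HSP150, another Pir protein, ran from 1.08 to 2.21 with a median of 1.95 in ts2, against -0.39 to 0.14 in WT (1.86 ± 0.12, adjusted p = 9e-14). The lowest ts2 value was that of array D, and the other 5 lay between 1.85 and 2.21.

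SED1, an abundant anchored mannoprotein, ran from 1.33 to 1.87 with a median of 1.55 in ts2, against -0.33 to 0.17 in WT (1.56 ± 0.10). PST1, an anchored protein that protoplasts secrete as they rebuild the wall, ran from 1.17 to 1.84 with a median of 1.63 in ts2, against -0.33 to 0.07 in WT (1.56 ± 0.11). Both groups of arrays stood wholly apart for each gene. CWP1, an anchored mannoprotein, ran from 0.97 to 1.70 with a median of 1.38 in ts2, against -0.46 to 0.04 in WT (1.34 ± 0.13). CCW12, a major anchored mannoprotein, ran from 0.93 to 1.30 with a median of 1.12 in ts2, against -0.19 to 0.27 in WT (1.14 ± 0.07). CIS3, the fourth Pir protein on the list, had the smallest change of the 11, with 0.02 to 0.86 and a median of 0.54 in ts2, against -0.33 to 0.28 in WT (0.49 ± 0.09, adjusted p = 4.92e-05). Its arrays overlapped those of WT, although HSP150 is its neighbour on chromosome X with no gene between them. The Pir genes have related sequences, and how far their spots share signal was not tested.

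The Tip1/Tir/Dan family encodes mannoproteins known from cold shock and low oxygen. TIP1 ran from -0.93 to -0.48 with a median of -0.73 in ts2, against -0.49 to 0.09 with a median of -0.12 in WT (-0.71 ± 0.08, adjusted p = 9e-09). The lowest WT array lay just below the highest ts2 array, and the other arrays stood apart. DAN1 was scattered, with -1.50 to -0.31 in ts2 against -2.55 to 0.43 in WT (-0.86 ± 0.37, adjusted p = 0.0417), and its groups overlapped. The DAN1 call was lost without ts2 array A, B, C, D or E in turn. TIR1 was not called (-0.51 ± 0.23, adjusted p = 0.0572): 5 ts2 arrays lay between -1.36 and -0.14 and array F at 1.62. TIR2 had a median of -0.40 in ts2 against -0.35 in WT. When the mean of the WT arrays was fitted in place of 0, TIR2 (-0.22, adjusted p = 0.251), TIR3 (-0.64, adjusted p = 0.0608) and DAN1 (-0.36, adjusted p = 0.539) were no longer called.

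Glucan synthase has alternative catalytic subunits, FKS1 and the stress-induced GSC2. In ts2, FKS1 ran from -0.43 to 0.31 with a median of 0.11, against -0.23 to 0.01 in WT, and it was not called (0.00, 95 percent interval -0.17 to 0.18, adjusted p = 0.977). GSC2 ran from 0.30 to 1.53 with a median of 1.21 on 5 ts2 arrays, against -0.30 to 0.01 in WT (1.12 ± 0.15, adjusted p = 2.21e-07), and no array overlapped. CHS3, the main chitin synthase, ran from -0.08 to 0.63 in ts2 against -0.61 to 0.32 in WT and was not called (0.20 ± 0.20). KRE6, which acts in glucan synthesis, was not called either (0.04 ± 0.07).

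Of the remodelling enzymes, CRH1, which joins chitin to glucan, ran from 0.22 to 0.88 with a median of 0.70 in ts2, against -0.25 to 0.08 in WT (0.65 ± 0.09, adjusted p = 1.74e-07). The exoglucanase EXG1 rose by 1.05 ± 0.09, and SCW10 and UTR2 rose by 0.57 ± 0.08 and 0.26 ± 0.09. The UTR2 call was lost without ts2 array E (adjusted p = 0.0815) and with the WT mean fitted (0.17), and without the centring its value was -0.10. GAS3, of the Gas family of glucan-elongating proteins, was the lowest wall gene, with -1.87 to -0.93 and a median of -1.13 in ts2 against -0.26 to 0.13 in WT (-1.28 ± 0.09, a ratio of 0.411, adjusted p = 3.61e-13). No GAS3 array overlapped between the groups. EXG2 and SCW4 fell by 0.35 and 0.33, and the SCW4 call was lost without ts2 array F (adjusted p = 0.0679) and with the WT mean fitted (-0.22). GAS5 and BGL2 were not called.

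Yapsins are anchored aspartyl proteases of the cell surface. YPS1 ran from 0.73 to 1.45 with a median of 1.12 in ts2, against -0.25 to 0.14 in WT (1.12 ± 0.08), and YPS3 rose by 1.14 ± 0.07. The kinase gene SLT2 ran from 0.85 to 1.43 with a median of 1.04 in ts2, against -0.45 to 0.10 in WT (1.07 ± 0.12, adjusted p = 9.98e-09). RLM1, the transcription factor under Slt2, ran from 1.34 to 1.86 with a median of 1.42 in ts2, against -0.45 to 0.34 in WT (1.49 ± 0.11). For these genes the ts2 and WT arrays did not overlap. KDX1, a kinase-like relative of Slt2 and a known Rlm1 target, ran from 0.49 to 1.11 in ts2 against -0.48 to 0.53 in WT (0.84 ± 0.12), and BAG7 rose by 0.65 ± 0.16.

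The ts2 arrays lay in 3 of the 4 slide runs, the ranges of slide numbers in the titles. Called wall genes numbered 29 within run 2, 28 within run 3, 22 within run 4 and 24 with the run as a block. On the ratios as deposited, without centring, 15 wall genes were higher and 8 lower in ts2, while the median of all genes moved to -0.35 and 6.92 percent of genes were higher against 31.6 percent lower. On that scale the median of all genes was shifted by more than 0.1 in 11 of the 13 mutant groups.

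In esa1, 22 wall genes rose and 2 fell, with a median change of 0.71. Over all genes 16.9 percent rose and 11.9 percent fell, with a median of -0.00. ESA1 encodes the catalytic subunit of the NuA4 acetyltransferase. All 11 structural mannoproteins and both yapsins rose, as did GSC2, KRE6, CRH1, UTR2, BGL2, SCW10, EXG1, RLM1 and KDX1.

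EXG1 had 1.46 and 1.19 in esa1, against -0.06 to 0.46 with a median of 0.08 in WT (1.32 ± 0.15, adjusted p = 2.85e-07). YPS3 had 1.20 and 1.29 in esa1, against -0.23 to 0.06 in WT (1.25 ± 0.12). GSC2 had 1.22 and 1.27 in esa1, against -0.30 to 0.01 in WT (1.24 ± 0.23). All these esa1 arrays stood above the WT arrays. The same held for 19.8 percent of all genes in esa1, and 14.4 percent lay wholly below. Of the other genes followed across groups, PIR3 had 1.09 and 1.25, CIS3 0.98 and 0.96, CCW12 0.80 and 0.62, CWP1 0.76 and 0.65, and YPS1 1.12 and 0.94 in esa1. CRH1 had 0.81 and 0.64, RLM1 0.96 and 0.80, and KDX1 0.58 and 0.67 in esa1. SLT2, at 0.68 and 0.28, was not called, and neither were FKS1 at 0.39 and 0.36 (adjusted p = 0.062) and CHS3 at 0.33 and 0.54. TIR2, at -0.80 and -0.58 in esa1 against -0.48 to 0.07 in WT, fell by 0.69 ± 0.23, and GAS5, at -0.25 and -0.41 in esa1 against -0.27 to 0.12 in WT, fell by 0.33 ± 0.12.

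Both esa1 calls of lower genes and that of KDX1 were lost with the WT mean fitted (TIR2 -0.43, GAS5 -0.32 and KDX1 0.59). Leaving out esa1 array A left 16 called genes and leaving out array B left 17, and 15 of the 24 calls held whichever array was left out. Both esa1 arrays lay in slide run 3, where 29 wall genes were called. With the run as a block 22 were called. Without centring no wall gene was called in esa1, nor any of the 5520 genes tested (0 percent), and the median of the members was 0.27 where that of all genes was -0.44. TIR3 lies on chromosome IX, whose genes had a median of -0.41 in esa1 (8 higher and 89 lower of 203). TIR3 itself had -0.56 and -0.20 and was not called.

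In gcn5, 6 wall genes rose and 7 fell, with a median of -0.15, against 9.15 percent higher and 9.35 percent lower over all genes. GCN5 encodes the acetyltransferase of the SAGA complex. TIR3, SED1, PST1, HSP150, EXG1 and CCW12 rose. CWP1, SLT2, TIP1, YPS1, GAS3, KRE6 and FKS1 fell. The changed genes came from all 6 roles, and mannoprotein genes were among both the risen and the fallen.

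**Figure D2:**
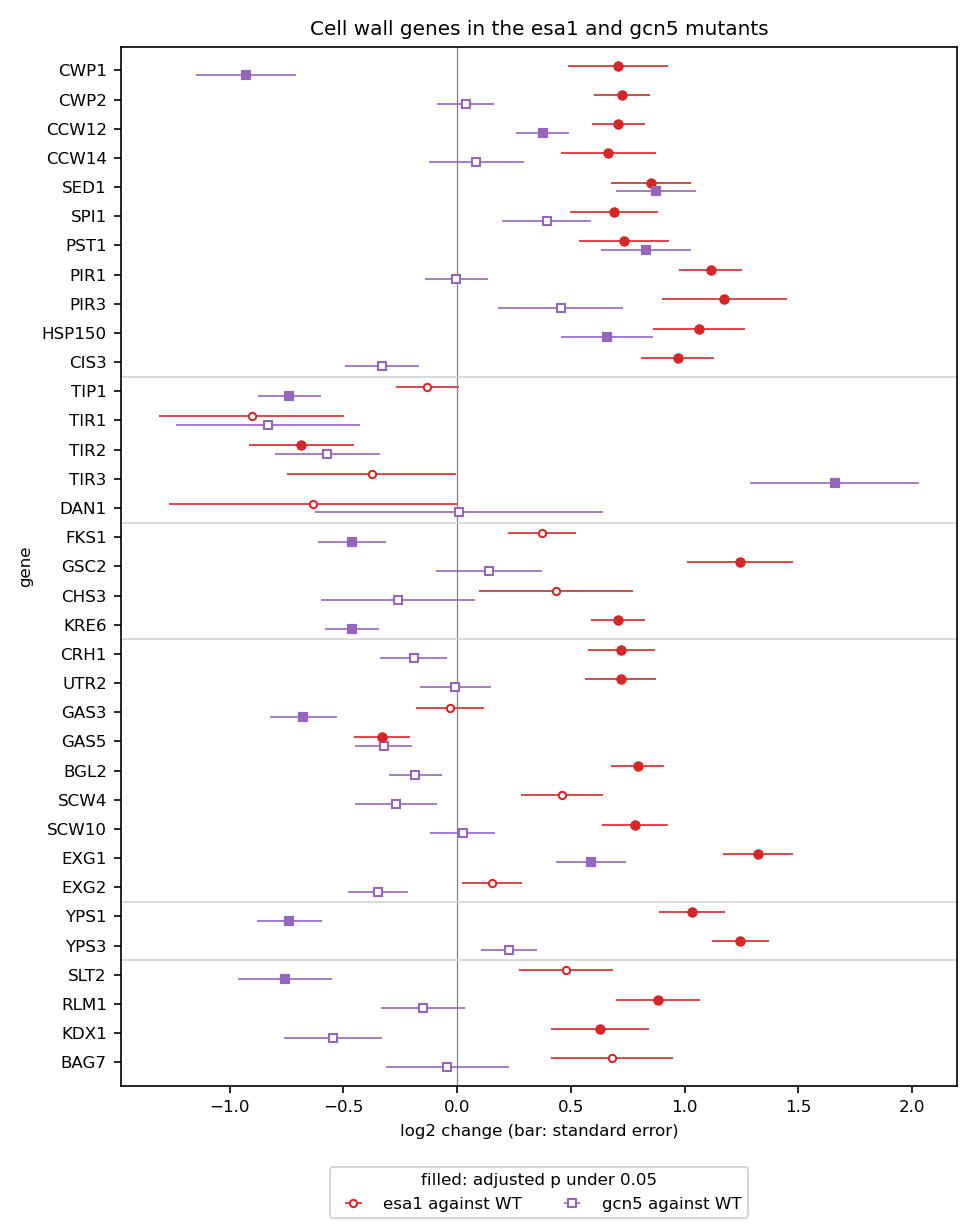
Log2 change against WT with its standard error for each wall gene in esa1 (circles) and gcn5 (squares), 2 arrays each, filled where the adjusted p was under 0.05. YPS1 lies at 1.03 in esa1 and -0.74 in gcn5, CWP1 at 0.71 and -0.93, while SED1 lies at 0.85 and 0.87.

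TIR3 had 1.82 and 1.499 in gcn5, against -0.41 to 0.83 with a median of -0.21 in WT (1.66 ± 0.37, adjusted p = 0.00193). SED1 had 0.85 and 0.90 in gcn5, against -0.33 to 0.17 in WT (0.87 ± 0.18). PST1 had 0.48 and 1.17 in gcn5, against -0.33 to 0.07 in WT (0.83 ± 0.20). All gcn5 arrays lay above the WT arrays for these genes. The same held for 13.1 percent of all genes in gcn5, and 12.8 percent lay wholly below. CWP1 had -1.20 and -0.66 in gcn5, against -0.46 to 0.04 in WT (-0.93 ± 0.22, adjusted p = 0.00327). SLT2 had -1.09 and -0.42 in gcn5, against -0.45 to 0.10 in WT (-0.76 ± 0.21, adjusted p = 0.0102), and its array B lay within the WT range. YPS1 had -0.73 and -0.75 in gcn5, against -0.25 to 0.14 in WT (-0.74 ± 0.14), and TIP1 had -0.72 and -0.76, against -0.49 to 0.09 in WT (-0.74 ± 0.14).

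FKS1 had -0.41 and -0.51 and CCW12 0.61 and 0.14 in gcn5. Uncalled genes were PIR3 at 0.10 and 0.82, CIS3 at -0.18 and -0.48, GSC2 at 0.15 and 0.12, CHS3 at -0.32 and -0.20, CRH1 at -0.20 and -0.19, RLM1 at -0.33 and 0.03, and KDX1 at -1.002 and -0.09. The gcn5 calls rested on few arrays. Without gcn5 array A 4 wall genes were called, without array B 7, and 1 of the 13 calls, TIP1, held whichever array was left out. SLT2 then had -0.22 without array A (adjusted p = 0.748) and PST1 0.47 without array B (adjusted p = 0.339), and TIR3 had 1.28 without array A (adjusted p = 0.161). Within slide run 2, which holds both gcn5 arrays, 18 wall genes were called, and 9 with the run as a block, where SLT2 was not (-0.52, adjusted p = 0.315). With the WT mean fitted 10 were called, and FKS1, EXG1 and SLT2 were not. With the replicate letter as a block in place of the dye term 4 were called, and TIP1 was not (-0.49, adjusted p = 0.101). Without centring 1 was called as higher, against 0.415 percent of all genes higher and 0.108 percent lower.

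The changes in esa1, gcn5 and ts2 share the WT strain as reference, and each gene's values stand side by side here. YPS1 had 1.03 in esa1, -0.74 in gcn5 and 1.12 in ts2, and CWP1 had 0.71, -0.93 and 1.34 in the same groups. SLT2 had 0.48 ± 0.21 in esa1, -0.76 in gcn5 and 1.07 in ts2, and SED1 had 0.85, 0.87 and 1.56. In the direct test of esa1 minus gcn5, 20 wall genes were higher in esa1 and 1 lower, against 12.5 percent and 7.63 percent of all genes. The largest differences were 1.77 ± 0.20 for YPS1, 1.63 ± 0.31 for CWP1 and 1.30 ± 0.23 for CIS3, and that of SLT2 was 1.24 ± 0.29. TIR3 was the gene lower in esa1, at -2.04 ± 0.52, where chromosome IX genes had a median of -0.44. SED1 (-0.02, 95 percent interval -0.53 to 0.49) and PST1 (-0.10, -0.67 to 0.48) gave no call.

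The esa1 and gcn5 arrays lay in different slide runs. Treating the run as a block, 12 of the 21 differences kept their call, among them YPS1, CWP1 and CIS3, while SLT2 (1.10, adjusted p = 0.0619) and TIR3 (-1.53, adjusted p = 0.151) did not. Without esa1 array A or gcn5 array B 12 differences were called, and without esa1 array B 13. Leaving out gcn5 array A gave 0.70 for SLT2 (adjusted p = 0.167), 0.76 for KDX1 (adjusted p = 0.175) and -1.66 for TIR3 (adjusted p = 0.094), and 8 of the 21 calls held whichever array was left out. Without gcn5 array B, SCW4 had 0.48 (adjusted p = 0.377).

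In the other 4 HAT mutants hardly any wall gene was called. In elp3, 1 rose (UTR2) and 0 fell, against 0.163 percent and 0.289 percent of all genes. UTR2 had 0.29 and 1.17 in elp3, against -0.20 to 0.43 in WT (0.73 ± 0.16, adjusted p = 0.0222), and without array B it had 0.32 (adjusted p = 0.947). No wall gene was called by limma in hat1 (0.0738 percent of genes higher and 0.498 percent lower), hpa2 (0.237 and 0.164 percent) or sas3 (0 and 0.163 percent). At an unadjusted p under 0.05 there were 1, 3 and 0 of the 35 wall genes in hat1, hpa2 and sas3, against 5.75, 13.2 and 5.94 percent of all genes. Without elp3 array A 2 were called in elp3, and without hpa2 array B 3 in hpa2.

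The double mutants carry ts2 together with a HAT mutation. Called wall genes higher and lower were 24 and 6 in esa1 ts2 (27.8 and 28.6 percent of all genes, 56.3 in all), 17 and 8 in gcn5 ts2 (26.4 and 27.7 percent, 54.1 in all), 20 and 3 in elp3 ts2 (19.8 and 19.9 percent, 39.6 in all), 18 and 2 in hat1 ts2 (15 and 16.5 percent), 19 and 4 in hpa2 ts2 (21.8 and 23.4 percent), and 21 and 2 in sas3 ts2 (23.8 and 24.4 percent, 48.2 in all). Over the 6 double mutants, which share the WT reference, the fitted change of PIR3 ran from 1.07 to 3.83, that of HSP150 from 0.98 to 2.77, that of RLM1 from 0.98 to 1.87 and that of GSC2 from 0.77 to 1.22. GAS3 ran from -1.66 to -0.64 and TIP1 from -1.41 to -0.34. CIS3 differed in sign among them, from -0.17 to 0.71, and TIR3 ran from -1.78 to 1.38. With the WT mean fitted TIP1 was not called in esa1 ts2, hat1 ts2 or sas3 ts2.

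**Figure D3:**
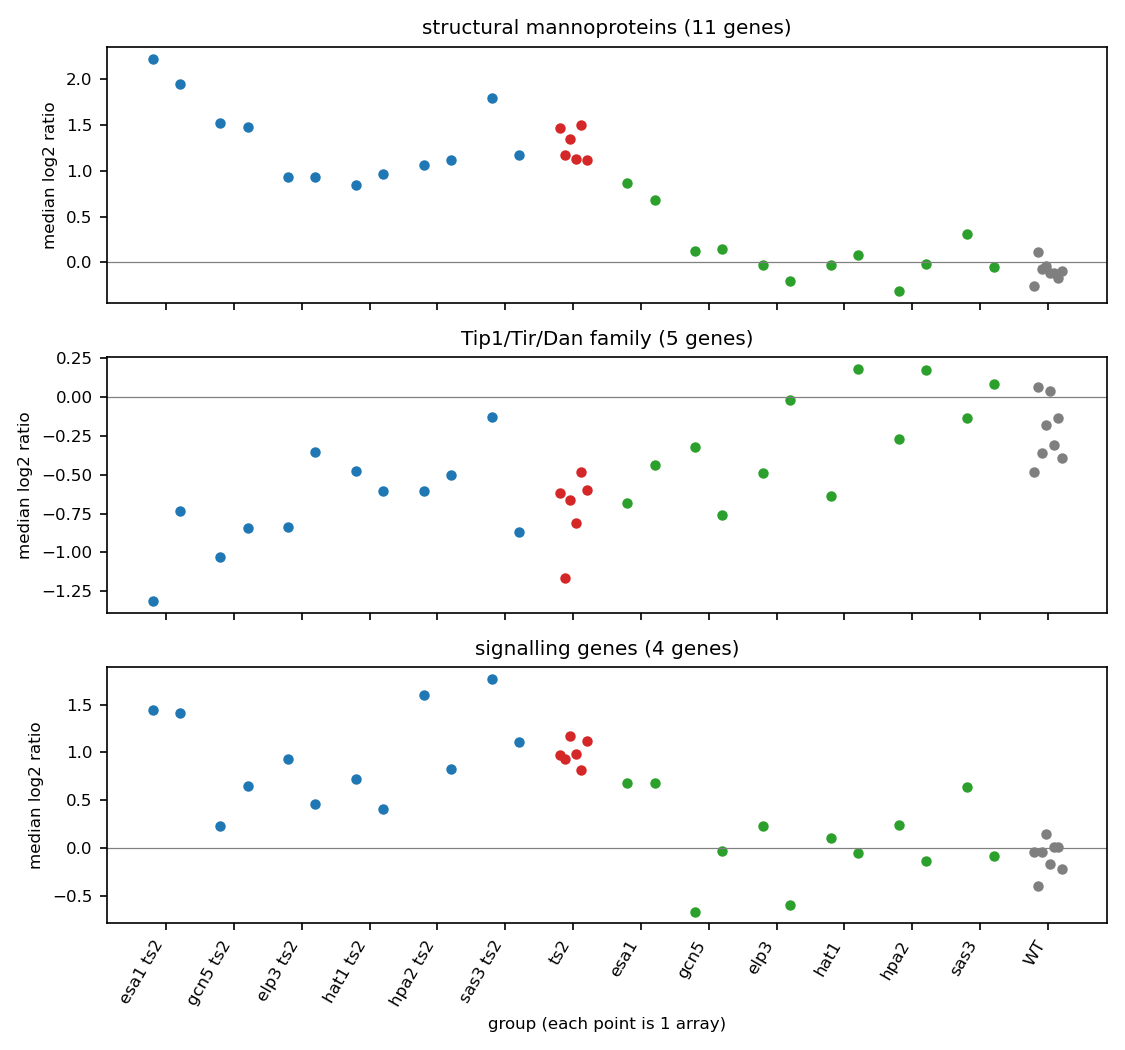
Median log2 ratio of the structural mannoproteins (top), the Tip1/Tir/Dan family (middle) and the signalling genes (bottom) on each of the 38 arrays, by group, with WT at the right. Mannoprotein medians run from 1.94 to 2.22 in esa1 ts2, from 1.12 to 1.495 in ts2 and from -0.26 to 0.11 in WT.

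In esa1 ts2, PIR3 had 3.63 and 4.03, against 1.67 to 2.68 in ts2 and -0.75 to -0.07 in WT. Its change against WT was 3.83 ± 0.27, a 14.2-fold ratio and the largest of any wall gene in any group. HSP150 had 2.91 and 2.63 in esa1 ts2 (2.77 ± 0.20) and SED1 had 2.62 and 2.15 (2.38 ± 0.18). TIR3 had -1.89 and -1.67 in esa1 ts2 (-1.78 ± 0.37), where chromosome IX genes had a median of -0.18, GAS3 had -1.37 and -1.41 (-1.39 ± 0.15), and TIR2 had -1.32 and -0.73 (-1.02 ± 0.23). SLT2 had 1.37 and 1.09, RLM1 1.89 and 1.65, KDX1 1.33 and 1.42, CWP1 1.90 and 1.52, CCW12 1.54 and 1.60, and YPS1 1.65 and 1.75. GSC2 had 0.90 and 1.18, CRH1 0.85 and 0.94 and CIS3 0.62 and 0.80. FKS1 at 0.22 and 0.37 and CHS3 at 0.37 and 0.03 were not called. Without centring 7 were higher and 9 lower in esa1 ts2, against 3.8 and 51.2 percent of all genes, and the median of all genes was -1.02. On that scale the values of 6 genes called higher turned negative: CIS3 (-0.32), KRE6 (-0.45), CRH1 (-0.13), UTR2 (-0.51), BGL2 (-0.55) and SCW10 (-0.25).

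In gcn5 ts2, PIR3 had 2.59 and 3.03 (2.81 ± 0.27), PST1 had 2.14 and 2.69 (2.41 ± 0.20) and HSP150 had 2.37 and 2.30 (2.33 ± 0.20). TIR1 had -1.71 and -1.54 in gcn5 ts2 (-1.62 ± 0.41), GAS3 had -1.67 and -1.51 (-1.59 ± 0.15), and TIP1 had -1.63 and -1.18 (-1.41 ± 0.14). CCW12 had 1.52 and 1.48, RLM1 0.77 and 1.21, GSC2 0.78 and 1.39 and CRH1 0.52 and 0.93, and all these were called higher against WT. CWP1 at -0.29 and 0.86, YPS1 at -0.14 and 0.19, SLT2 at -0.22 and 0.30, and KDX1 at -0.54 and 0.58 were not called, although all 4 were higher in ts2. CIS3 at -0.15 and -0.12, FKS1 at -0.13 and 0.00 and CHS3 at 0.48 and 0.95 were not called either. Without centring 5 were higher and 7 lower in gcn5 ts2, against 3.79 and 21.6 percent of all genes, and CCW14 turned to -0.09. Without gcn5 ts2 array B, RLM1 had 0.62 (adjusted p = 0.0505) and CRH1 0.46 (adjusted p = 0.079), and GAS5 had -0.23 without array A (adjusted p = 0.329).

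**Figure D4:**
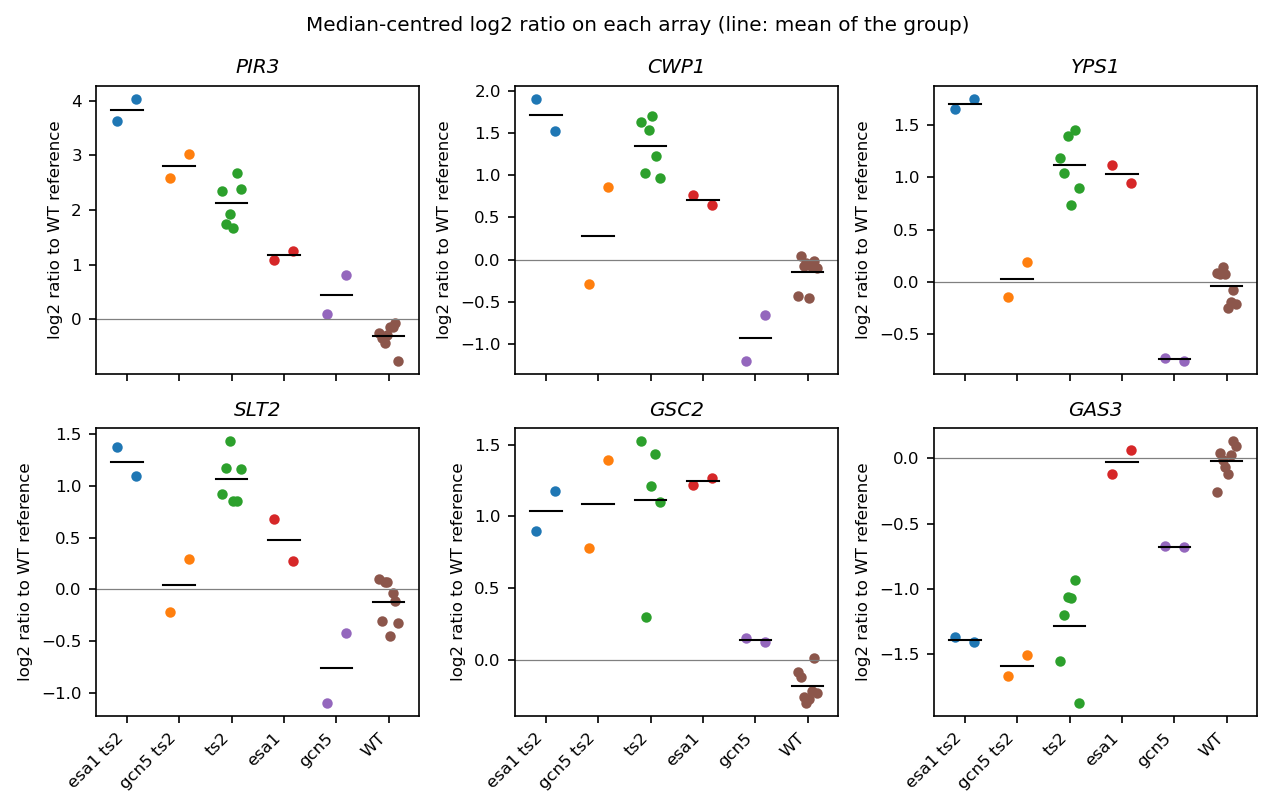
Median-centred log2 ratio of 6 wall genes on each array of esa1 ts2, gcn5 ts2, ts2, esa1, gcn5 and WT, with a line at each group's mean. For YPS1 the gcn5 ts2 arrays lie at -0.14 and 0.19, below all 6 ts2 arrays (0.73 to 1.45). They lie among the WT arrays (-0.25 to 0.14) or just above them. For PIR3 both esa1 ts2 arrays (3.63 and 4.03) lie above all ts2 arrays. The share of all genes so separated from ts2 was not counted.

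The other 4 double mutants were led by Pir genes or other mannoproteins. In elp3 ts2, HSP150 had 1.52 and 1.61 (1.57 ± 0.20), CWP2 had 1.22 and 1.30 (1.26 ± 0.12) and YPS3 had 0.93 and 1.42 (1.17 ± 0.12). GAS3 had -1.06 and -1.27, TIP1 -0.84 and -0.66, and EXG2 -0.30 and -0.77 there, and EXG2 was lost without elp3 ts2 array B (-0.28, adjusted p = 0.275). In hat1 ts2, SPI1 had 1.13 and 1.31 (1.22 ± 0.20), CWP1 had 1.27 and 1.11 (1.19 ± 0.22) and PIR3 had 0.96 and 1.22 (1.09 ± 0.27). GAS3 had -0.53 and -0.75 and TIP1 -0.30 and -0.61 in hat1 ts2. Leaving out hat1 ts2 array B left 13 called genes, with CRH1 at 0.41 (adjusted p = 0.2) and TIP1 at -0.26 (adjusted p = 0.447).

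In hpa2 ts2, HSP150 had 1.95 and 2.01 (1.98 ± 0.20), PIR3 had 1.70 and 1.96 (1.83 ± 0.27) and PST1 had 1.59 and 1.87 (1.73 ± 0.20). GAS3 had -1.65 and -1.67, CHS3 -2.62 and 0.11, and SCW4 -1.02 and -0.51 in hpa2 ts2. The CHS3 call (-1.26 ± 0.34) rested on array A, and without it the value was 0.07 (adjusted p = 0.892). That array's title names hpa2 ts2 while its strain number is the one of elp3, and without it 17 wall genes were called, with CRH1 at 0.17 (adjusted p = 0.585), GSC2 at 0.80 (adjusted p = 0.07) and KDX1 at 0.54 (adjusted p = 0.154). GSC2 was not called without array B either (0.74, adjusted p = 0.103). With array weights neither GSC2 (adjusted p = 0.0638) nor CRH1 (adjusted p = 0.16) was called in hpa2 ts2. In sas3 ts2, PIR3 had 2.79 and 1.91 (2.35 ± 0.27), HSP150 had 2.73 and 1.63 (2.18 ± 0.20) and PST1 had 2.22 and 1.60 (1.91 ± 0.20). GAS3 had -1.56 and -1.47 and TIP1 -0.13 and -0.55 in sas3 ts2. Without sas3 ts2 array B TIP1 had -0.08 (adjusted p = 0.783), and without array A CCW14 had 0.45 (adjusted p = 0.238). Without centring, wall genes higher and lower were 5 and 1 in hpa2 ts2 (3.71 and 2.34 percent of all genes), 9 and 1 in sas3 ts2 (3.76 and 4.61 percent), 1 and 0 in elp3 ts2 (2.59 and 0.651 percent), and 0 and 0 in hat1 ts2 (1.9 and 0.128 percent).

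The double mutants of gcn5 and esa1 were also set directly against ts2. In gcn5 ts2 minus ts2, 6 wall genes were higher and 10 lower, against 11.9 percent and 11.4 percent of all genes. TIR3 was higher by 2.07 ± 0.43, with 1.54 and 1.22 in gcn5 ts2 against -1.50 to -0.23 in ts2. Without gcn5 ts2 array A the TIR3 difference was 1.69 and its call was lost. PST1 and SED1 were higher by 0.86 ± 0.23 and 0.66 ± 0.20, and SPI1, YPS3 and CCW12 also passed. Without gcn5 ts2 array B the PST1 difference was 0.57 and its call was lost. YPS1 was lower by 1.09 on the log2 scale (-1.09 ± 0.17, adjusted p = 1.67e-05), CWP1 had -1.06 ± 0.25 and SLT2 -1.02 ± 0.24, and EXG2, KDX1, TIP1, CIS3, BGL2, GAS5 and KRE6 were lower as well. For YPS1, CWP1 and SLT2 both gcn5 ts2 arrays lay below all 6 ts2 arrays. These were the wall genes of largest fall in this comparison, and the share of all genes so separated was not counted.

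Those differences leaned on gcn5 ts2 array A. Without it 6 were called, with SLT2 at -0.57 (adjusted p = 0.271), CWP1 at -0.48 (adjusted p = 0.38), KDX1 at -0.31 (adjusted p = 0.627) and GAS5 at -0.37 (adjusted p = 0.242). Of the 16 calls 3 held whichever array was left out, YPS1 among them. Without gcn5 ts2 array B, SED1 had 0.41 (adjusted p = 0.357) and SPI1 0.19 (adjusted p = 0.732). CCW12 was not called with the WT mean fitted (0.36, adjusted p = 0.0502), without the dye term (adjusted p = 0.0594) or within slide run 2 alone (0.40, adjusted p = 0.0615). Its call was also lost without WT array C, D, E, F, G or H in turn. Under a block for the slide run 12 of the 16 calls remained, and so did 12 within slide run 2 alone. Without centring none was made, against 0.253 and 0.722 percent of all genes higher and lower.

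In esa1 ts2 minus ts2, 12 wall genes were higher and 1 lower, against 14.5 percent and 9.57 percent of all genes. PIR3 was higher by 1.70 ± 0.32 (adjusted p = 0.000296), EXG1 by 0.95 ± 0.18 and HSP150 by 0.90 ± 0.23. PIR1, SED1, SPI1, YPS3, YPS1, KRE6, BGL2, CCW12 and CWP2 were also higher, and GAS5 was lower (-0.67 ± 0.14), with -0.57 and -0.48 in esa1 ts2 against -0.15 to 0.45 in ts2. The ts2 values of EXG1 ran from 0.37 to 1.42, below 2.03 and 1.97 in esa1 ts2. The share of all genes separated between these groups was not counted. Without esa1 ts2 array A 7 were called and without array B 5. Both arrays lay in slide run 3, and within it 7 of the 13 calls remained. HSP150 (0.66, adjusted p = 0.0579), PIR1 (0.53, adjusted p = 0.122), GAS5 (-0.56, adjusted p = 0.0721), BGL2, CCW12 and YPS1 were not called there. A block for the run kept 11 and lost CWP2 and YPS1. Without centring no wall gene was called, against 0.0362 and 0.326 percent of all genes higher and lower, and the median of the members was -0.32 where that of all genes was -0.63. On that scale CWP2 (-0.25), CCW12 (-0.23), KRE6 (-0.13), BGL2 (-0.19) and YPS1 (-0.08) had the opposite sign.

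The interaction, double mutant minus ts2 minus HAT mutant, asks whether a double mutant departs from the sum of its single mutants. It was called for 0 wall genes with elp3 (0.326 percent of genes higher and 0.399 percent lower), gcn5 (0.506 and 0.488 percent, 0.993 in all), hat1 (0.167 and 0.242 percent), hpa2 (0.622 and 1.19 percent) and sas3 (0 and 0 percent). At an unadjusted p under 0.05, limma gave 2, 2, 5, 5 and 0 of the 35 wall genes in that order of HATs, against 13.7, 11, 12.3, 14.8 and 3.09 percent of all genes. For gcn5 the estimate was -0.35 for YPS1 (95 percent interval -0.80 to 0.10), -0.14 for CWP1 (-0.82 to 0.55), -0.27 for SLT2 (-0.92 to 0.38) and -0.28 for KDX1 (-0.95 to 0.40). With hat1 none of the 11 mannoproteins passed, and their lowest estimate was -0.73. With elp3 the estimate of TIR3 was 1.83 (0.67 to 2.995, adjusted p = 0.127), where elp3 ts2 array B had 2.47 and array A -0.66. The elp3, elp3 ts2 and hpa2 ts2 arrays lay in slide run 1, which held no ts2 array. The interactions with elp3 and hpa2 thus compare arrays across runs and could not be fitted within a run. With the run as a block both gave 0 calls.

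With esa1, 0 wall genes were higher and 1 lower, against 1.73 percent and 3.2 percent of all genes (4.92 in all), and the median estimate of the wall genes was -0.31 where that of all genes was 0.03. The gene was GSC2, with 0.90 and 1.18 in esa1 ts2, 0.30 to 1.53 in ts2, 1.22 and 1.27 in esa1, and -0.30 to 0.01 in WT. Both esa1 ts2 arrays lay within the ts2 range and below both esa1 arrays, and the interaction was -1.33 ± 0.36 (95 percent interval -2.07 to -0.58, adjusted p = 0.029). It was not called without esa1 ts2 A, esa1 ts2 B, esa1 A, esa1 B, ts2 A or ts2 D in turn (-1.53 to -1.21 over all left-out arrays), nor within slide run 3 alone (-0.91, adjusted p = 0.0708). CIS3 came next, at -0.74 (-1.25 to -0.24, adjusted p = 0.0848), and PIR3 had 0.53 (-0.33 to 1.39). Without ts2 array F 2 genes were called, and with array weights 9.

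**Figure D5:**
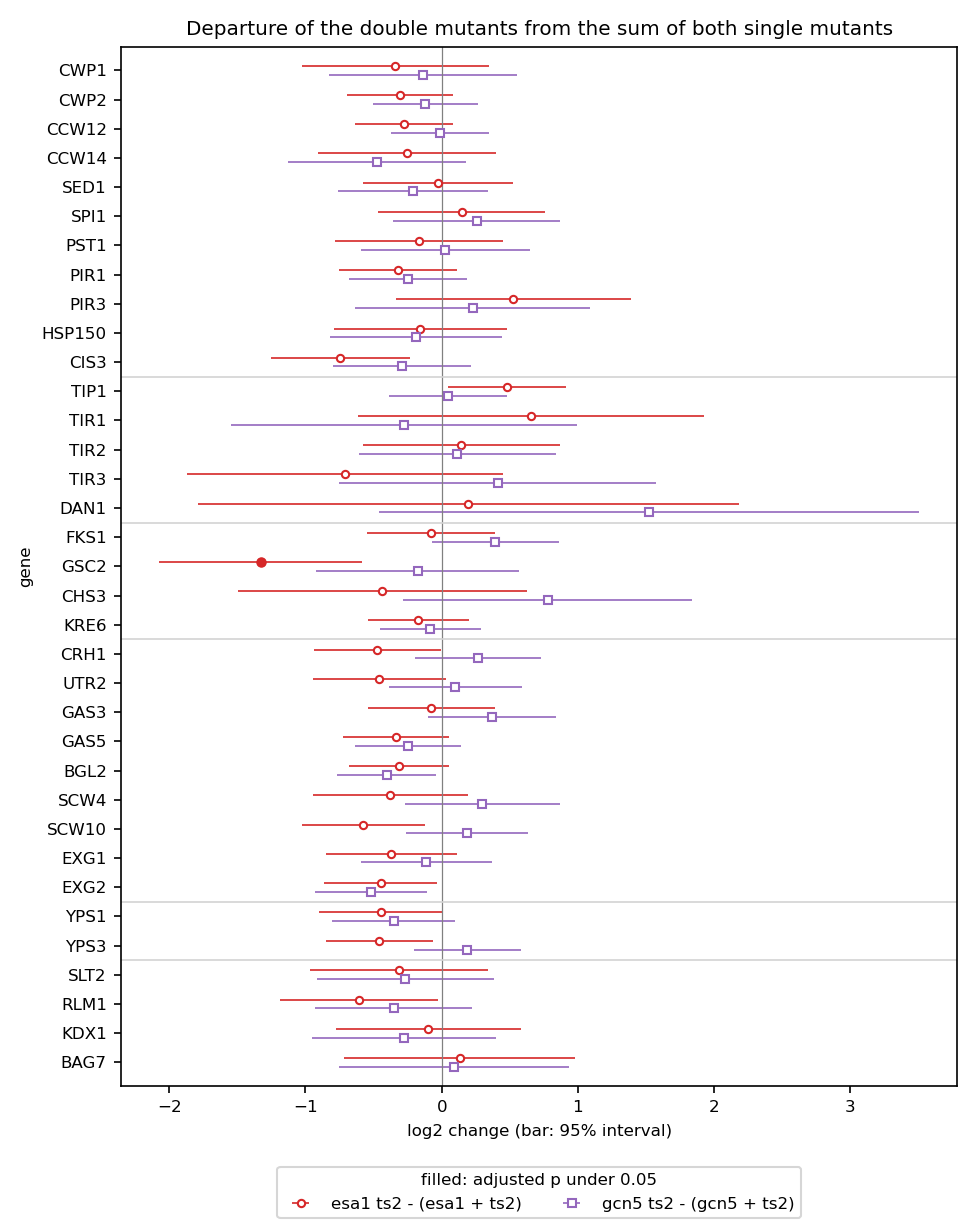
Interaction estimate with its 95 percent interval for each wall gene, as esa1 ts2 minus the sum of esa1 and ts2 (circles) and gcn5 ts2 minus the sum of gcn5 and ts2 (squares), filled where the adjusted p was under 0.05. GSC2 with esa1, at -1.33, is the only filled point.

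Some wall genes are neighbours. CWP1 and CWP2 lie side by side on chromosome XI in the R64 assembly, and in gcn5 they had -0.93 ± 0.22 and 0.04 ± 0.12. YPS1 and YPS3, side by side on chromosome XII, had -0.74 ± 0.14 and 0.23 ± 0.12 in gcn5. PIR1 and PIR3, side by side on chromosome XI, had 1.32 ± 0.08 and 2.13 ± 0.16 in ts2. These are values of each gene and the difference between neighbours was not tested.

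Another 79 genes of the pathway, all with a named spot, were read alongside. In ts2, 33 of them rose and 19 fell with a median of 0.12, against the 32 and 33.2 percent of all genes. Of 26 upstream signalling genes 9 rose and 8 fell, of 33 further synthesis and remodelling genes 14 rose and 5 fell, and of 20 further wall proteins 10 rose and 6 fell. CTS1, the chitinase that separates daughter cells, rose by 1.86 ± 0.07. FIT2, an iron-related mannoprotein, had 1.68 ± 0.12, YGP1, a stress-related secreted glycoprotein, 1.59 ± 0.09, and SDP1, a phosphatase of Slt2, 1.41 ± 0.13. SAG1, the alpha-agglutinin of mating, had -1.75 ± 0.17, the yapsin MKC7 -1.47 ± 0.11, the sensor WSC2 -1.11 ± 0.12 and KNR4, a regulator of wall synthesis, -1.09 ± 0.06.

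In esa1, 23 of the 79 rose and 6 fell, against 16.9 and 11.9 percent of all genes. CHS5, needed to export chitin synthase, had 1.22 ± 0.12, CTS1 1.11 ± 0.13, SRL1 1.08 ± 0.26 and ZEO1 1.05 ± 0.21, while FLO10, a flocculin, had -1.21 ± 0.20, DAN4 -0.77 ± 0.19, FLO1 -0.66 ± 0.13 and WSC3 -0.65 ± 0.23. In gcn5, 5 rose and 7 fell, at or below the 9.15 and 9.35 percent of all genes. DSE4, a daughter-cell glucanase, had 1.13 ± 0.22, FIT2 1.08 ± 0.20, CTS1 0.88 ± 0.13 and WSC4 0.86 ± 0.30, while SAG1 had -2.05 ± 0.29, SIM1 -1.20 ± 0.25, AGA1, an agglutinin anchor, -1.16 ± 0.26 and WSC2 -0.87 ± 0.20. In esa1 minus gcn5, 18 were higher and 5 lower, against 12.5 and 7.63 percent of all genes, led by SAG1 (1.80 ± 0.41) and MID2, a stress sensor of the pathway (1.47 ± 0.20), and by WSC4 at the low end (-1.47 ± 0.42).

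In esa1 ts2, 33 of the 79 rose and 18 fell, against 27.8 and 28.6 percent of all genes, led by YGP1 (2.47 ± 0.15) and CTS1 (2.43 ± 0.13), with SAG1 (-1.60 ± 0.29) and FLO10 (-1.48 ± 0.20) at the low end. In gcn5 ts2, 26 rose and 18 fell, against 26.4 and 27.7 percent of all genes, led by CTS1 (2.58 ± 0.13) and DSE4 (2.45 ± 0.22), with SAG1 (-1.94 ± 0.29) and WSC2 (-1.75 ± 0.20) at the low end. The interaction with esa1 was called lower for TOS6 (-1.56 ± 0.40), SRL1 (-1.34 ± 0.40) and WSC1, a sensor (-0.57 ± 0.15), against 3.2 percent of all genes. With gcn5 it was called higher for AGA1 (1.95 ± 0.39) and SAG1 (1.86 ± 0.45) and lower for FIT2 (-1.27 ± 0.31). Over all genes 0.506 percent were called higher and 0.488 percent lower with gcn5. SAG1 was low in ts2, in gcn5 and in gcn5 ts2, so its interaction means that the falls of both single mutants did not add up.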

How the data were processed

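The deposited table holds 1 value per spot and array, a linear ratio of test strain to WT reference for 7056 spots on 38 arrays of PCR products. Per the labels the ratio sets 1 dye channel over the other. Per the series description the authors scaled the ratios by their mode and then by spiked Bacillus subtilis RNA. Whether the deposited ratio comes before or after those steps is not given in the sources used here. Signal, background and depth were not analysed here, and the number of arrays limits the precision. Some values lie at or below 0 (0.752 to 4.23 percent per array) and were set to missing, since they have no log.

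Groups, dyes and letters came from the labels. In the groups of 2 arrays, A and B held the test strain in opposite dyes. WT arrays name no test dye, so the sign of their dye came from the slide mate, or from the letter for array E. Array A of hpa2 ts2 has a strain number that goes against its title, and it was kept under the title. Among arrays labelled the same way round, 1 of 342 pairs had a correlation under -0.3 (-0.309, hpa2 A and ts2 A). The dyes are stated, so its direction was kept.

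Ratios were turned to log2, spots of a gene averaged (30 genes), and the median gene of each array subtracted. Each gene was fitted with limma 3.58.1 under R 4.3.3, using 13 mutant groups, WT fixed at 0 and a dye term, which gives 14 parameters, 24 residual degrees of freedom and a prior of 2.89. The Benjamini-Hochberg adjustment ran over all genes of a comparison, and calls were made at 0.05. A gene was tested if it had a value on 4 or more ts2 arrays, on 6 or more WT arrays and on both arrays of each smaller group involved. Names and neighbours came from the R64 gene table given, which matched 5574 of 5579 named spots. Promoter and protein sequences were not used here.

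The 36 genes and all lists were chosen with earlier results of these data known. All 36 are accounted for. Values on each array are given for the 3 largest called changes in each direction of a comparison and for 13 fixed representatives of the roles. Up to 4 other pathway genes are named per direction. Alternatives were the deposited scale, no dye term, the WT mean fitted, no dye sign for WT, the replicate letter or slide run as a block, the slide as a random block, each slide run alone, array weights, no filter on missing values, and each array left out. Where leaving out 1 array left a group with a single one, its spread was taken from the rest of the model.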

Additional observations from a re-analysis of the deposited data

Results flagged for a closer look

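On 6 of 70 sets of wall gene values in ts2 or WT, 1 array stood apart from the rest of its group by Dixon's criterion, where chance gives about 1 in 20. PIR1 had 1.85 on ts2 array E where the other 5 lay between 1.12 and 1.30, and HSP150 had 1.08 on ts2 array D where the others lay between 1.85 and 2.21. Both genes were called higher in ts2 without that array too. In WT, TIR3 had 0.83 on array H (others -0.41 to 0.15), CHS3 had -0.61 on array E (others -0.00 to 0.32), SCW10 had -0.27 on array E (others -0.01 to 0.20) and EXG1 had 0.46 on array B (others -0.06 to 0.15). The interaction of GSC2 with esa1, at -1.33, was the only interaction called among the wall genes, against 4.92 percent of all genes called with esa1. It was not called within slide run 3 alone (-0.91, adjusted p = 0.0708) or with the replicate letter as a block (-1.53, adjusted p = 0.068). The lack of a call in the other wall genes does not show that their ts2 effect was the same.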

How the results depend on the processing

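Without centring, called wall genes fell in number to 0 in elp3, 0 in esa1, 1 in gcn5, 1 in elp3 ts2, 16 in esa1 ts2, 12 in gcn5 ts2, 0 in hat1 ts2, 6 in hpa2 ts2, 10 in sas3 ts2, and 0 in the esa1 interaction, gcn5 ts2 minus ts2, esa1 ts2 minus ts2 and esa1 minus gcn5. On that scale signs turned for UTR2 in ts2 (-0.10), for CIS3 (-0.32), KRE6 (-0.45), CRH1 (-0.13), UTR2 (-0.51), BGL2 (-0.55) and SCW10 (-0.25) in esa1 ts2, for CCW14 in gcn5 ts2 (-0.0937), for CWP2 (-0.25), CCW12 (-0.23), KRE6 (-0.13), BGL2 (-0.19) and YPS1 (-0.0843) in esa1 ts2 minus ts2, for TIP1 in esa1 minus gcn5 (-0.0257), and for the medians of the wall genes in elp3 (0.60), gcn5 (0.0405) and esa1 ts2 minus ts2 (-0.32). The cause was not tested. The elp3 count was 0 with the WT mean fitted, within slide run 1, with the slide run as a block (median 0.0051) and with the replicate block. The esa1 interaction gave 2 calls with the slide as a random block and 9 with array weights. Esa1 minus gcn5 gave 12 with the slide run as a block.

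Deviations of arrays with the same letter correlated between -0.17 and 0.54 over 66 pairs of groups, 42 of them above 0.1 (median 0.142). Most thus lay above 0.1 but not every one. In the groups of 2 arrays the letter goes with the dye of the test strain, so letter and dye cannot be told apart there. In ts2, array B held the test strain in the same dye as array A. A block for letter B therefore pooled arrays of both dyes, and counts under it do not separate a shared replicate from dye. The labels do not say what else a letter shares, and the main values carry a dye term but no block. With the letter as a replicate block in place of the dye term, calls numbered 0 in elp3, 4 in gcn5 (without CWP1, CCW12, HSP150, TIP1, FKS1, KRE6, GAS3, EXG1 and SLT2, with TIP1 at -0.49 and adjusted p = 0.101), 9 in gcn5 ts2 minus ts2 and 0 in the esa1 interaction. No other count moved by more than 1.5 times under the block.

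With each array left out in turn, called wall genes numbered 27 to 29 in ts2, 0 to 2 in elp3, 16 to 25 in esa1, 4 to 13 in gcn5, 0 to 3 in hpa2, 16 to 24 in elp3 ts2, 27 to 31 in esa1 ts2, 19 to 26 in gcn5 ts2, 13 to 20 in hat1 ts2, 17 to 23 in hpa2 ts2 and 21 to 23 in sas3 ts2. They numbered 6 to 17 in gcn5 ts2 minus ts2, 5 to 14 in esa1 ts2 minus ts2, 12 to 21 in esa1 minus gcn5, 0 to 2 in the esa1 interaction, and 0 to 1 in those with elp3 and hpa2. CHS3 in hpa2 ts2 ran from -2.59 to 0.0744. Leaving out the filter on missing values or the dye sign of WT arrays moved no count by more than 1.5 times.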
